A study of Danio rerio with 15 samples.

Results

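The kidneys of adult zebrafish 1 day post injury (dpi) were compared with uninjured kidneys, 3 samples against 3 of the 15 in the series, over 5685 listed genes, each detected in 3 or more of the 15 samples. At 1 dpi 735 genes were higher and 392 were lower than in uninjured kidneys. The 12 largest rises outside a list of clock genes included immediate early transcription factor genes (atf3, egr1, fosab, egr4). They also included the growth arrest gene cdkn1a and heat shock genes (hsp70.2, hsp70.3). The lower genes included 19 of 61 proximal tubule genes (31.1%, against 6.9% of all genes), and 9 without uninjured replicate 1. Among the 19 were those of the receptors that take up filtered protein, whose calls were lost without that sample.

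All fish were AB strain and 6 months old. The 1 dpi fish had received an intraperitoneal injection of gentamicin, an aminoglycoside antibiotic that enters proximal tubule cells and kills them, and per the study's methods only injected fish that excreted protein in the urine at 1 dpi were used. Whether the uninjured fish were injected with vehicle is not given in the sources used here. The other 9 samples are injured kidneys at 3, 5 and 7 dpi, 3 samples each. The number of kidneys per sample, the sex of the fish and the time of day of collection are not given in the sources used here, so p-values measure the spread between these samples only.

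The zebrafish kidney filters blood through nephrons whose proximal tubule reclaims protein, sugar, amino acids and phosphate from the filtrate. Injured tubule cells switch on stress and repair genes within hours, and the fish, unlike mammals, later forms new nephrons from progenitor cells. The tissue between the nephrons is the site of adult blood formation, and the steroid-producing interrenal gland and the calcium- and phosphate-regulating corpuscles of Stannius lie in or on the kidney. In bulk tissue, fewer cells of a type and less RNA per cell cannot be told apart.

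Values are FPKM, read counts scaled to gene length and library size, and differences are in log2(FPKM + 1), 1 dpi minus uninjured. A gene was called at a limma adjusted p below 0.05. The deposited table lists only part of the transcriptome, so every count is a count among listed genes. The 1 dpi libraries had 15171806 to 15982533 reads and the uninjured libraries 13875548 to 15102333. Listed genes held 29.4%, 31.4% and 34.2% of the reads at 1 dpi and 24.8%, 26.1% and 25.3% in uninjured kidneys.

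The samples differed in tissue content in ways that the groups do not explain. The summed FPKM of 33 ovary markers was 73.2, 957 and 28.7 in 1 dpi replicates 1 to 3 and 1894, 42.2 and 2826 in uninjured replicates 1 to 3. Ovary RNA was thus high in 1 dpi replicate 2 and in uninjured replicates 1 and 3, and 0 of these markers were called in the limma fit or had an unadjusted p below 0.05. Limma voom on the recovered reads also called 0, while 13 were called lower without uninjured replicate 2. The egg coat gene zp3a.2 had 6.05, 181 and 1.66 FPKM at 1 dpi, against 388, 0.510 and 622 FPKM in uninjured kidneys. Exocrine pancreas markers summed to 948, 827 and 248 FPKM at 1 dpi and to 937, 179 and 245 FPKM in uninjured kidneys, and erythroid markers to 14055, 17967 and 4563 FPKM against 6761, 22742 and 7865 FPKM. These 3 lists overlapped between the groups. The part of the mixed tissue in single results was not tested, and values with the ovary level as a covariate are given beside the genes described here whose call they change. The covariate fit used all 15 samples, so it differs from the main fit in its samples too.

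**Figure D1:**
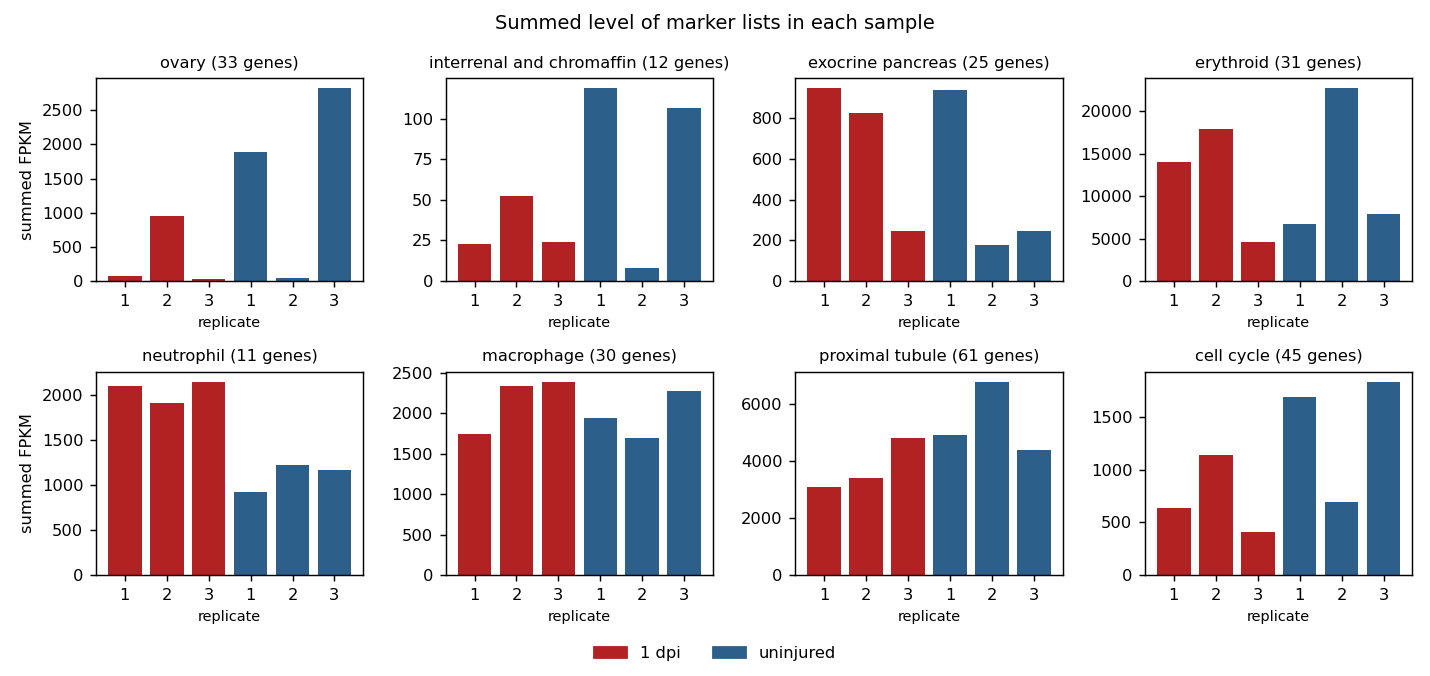
Summed FPKM of 8 gene lists (y axis, linear from 0) in each of the 3 samples at 1 dpi (red, left) and the 3 uninjured samples (blue, right), with the number of listed genes in brackets. Ovary, interrenal and cell cycle sums stand high in uninjured replicates 1 and 3 and, within 1 dpi, in replicate 2, and the neutrophil sum is 1910 to 2147 FPKM at 1 dpi against 920 to 1225 FPKM in uninjured kidneys.

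Of the 5685 genes, 1127 (19.8%) were called, 12.9% as higher at 1 dpi and 6.9% as lower. Differences of at least 1 on the log2 scale were seen in 589 of the higher and 300 of the lower genes. In 1399 genes (24.6%) all 3 samples at 1 dpi lay above all 3 uninjured samples, and in 1144 (20.1%) all lay below. The 1127 called genes were all among these. The median difference over all genes was -0.09, and 45.9% of the genes had a difference above 0. These values are the background for every list below.

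The count of falls depended on the samples far more than the count of rises. Leaving out uninjured replicate 2, the uninjured sample with little ovary RNA, gave 699 lower and 585 higher genes. Leaving out 1 dpi replicate 1, 2 or 3 gave 136, 95 and 259 lower genes, and leaving out uninjured replicate 1 or 3 gave 119 and 261. The count of higher genes was 477 without 1 dpi replicate 2, 420 without uninjured replicate 1 and 479 without uninjured replicate 3. None of the 1127 called genes changed sign in any of these 6 fits. With the ovary markers as a covariate in a fit on all 15 samples, 1177 genes were higher and 851 lower. The fit on all 15 samples without the covariate already gave 1169 higher and 818 lower genes. In the covariate fit the counts of several lists described below moved by more than 1.5 times against the fit on 6 samples. The parts of the added samples and of the covariate in these moves were not separated. Higher genes were 17 instead of 11 among antioxidant and conjugation enzymes, 13 instead of 6 in lysosome and autophagy, 13 instead of 7 in epithelial injury and repair, 14 instead of 8 in complement and coagulation, 9 instead of 5 in proteasome and ubiquitin and 9 instead of 4 in cell contacts. Lower genes were 36 instead of 19 among antioxidant and conjugation enzymes, 38 instead of 25 among solute carriers, 17 instead of 11 in amino acid metabolism, 8 instead of 5 in sterol synthesis and 7 instead of 0 in the interferon list.

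The largest rise outside the clock list was that of cipca, with 197, 255 and 484 FPKM at 1 dpi against 0.734, 0.5996 and 1.71 FPKM in uninjured kidneys. cipca encodes a CLOCK-interacting pacemaker protein and is thus a clock gene that the list does not hold. For it too, collection time and injury cannot be told apart. The next largest rise was that of atf3, a stress-induced transcription factor, with 912, 1107 and 1343 FPKM at 1 dpi and 5.18, 6.67 and 8.39 FPKM in uninjured kidneys. The lowest 1 dpi sample lay far above the highest uninjured sample in both genes, and the differences were 7.21 ± 0.39 and 7.18 ± 0.25 (SE, limma adjusted p = 0.000388 and 0.000159). The remaining leading rises were egr1, cdkn1a, slc16a6b, fosab, hsp70.2, cyr61, egr4, hsp70.3, hunk and dusp2, with differences of 5.28 to 6.46. All 12 passed in each of the 6 fits that left out a sample. Within this group, hunk encodes a kinase of the AMPK-related family and slc16a6b a monocarboxylate carrier. The carrier gene had 411, 434 and 586 FPKM at 1 dpi against 5.08, 8.11 and 4.82 FPKM in uninjured kidneys.

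The leading falls were those of stc1l, areg, cyp2ad2, fgf23, lrp2a, rnasel3, smim1, ppp1r1c, kynu, gnb5b, GRAMD2 and frzb, with differences of -5.37 to -2.34. Of these 12, areg, cyp2ad2, smim1, kynu and gnb5b passed in each of the 6 fits that left out a sample. For cyp2ad2, a cytochrome P450 gene, the values were 5.83, 10.99 and 5.91 FPKM at 1 dpi against 86.7, 64.1 and 76.5 FPKM in uninjured kidneys (difference -3.20 ± 0.29, limma adjusted p = 0.00119). Those of kynu, whose enzyme breaks down the tryptophan product kynurenine, were 2.14, 2.35 and 2.89 FPKM at 1 dpi and 22.1, 25.6 and 11.4 FPKM in uninjured kidneys (-2.51 ± 0.34, limma adjusted p = 0.00495). The groups stood apart in both genes. The calls of stc1l and lrp2a were lost without uninjured replicate 1 (limma adjusted p = 0.0559 and 0.0573). Those of fgf23, rnasel3 and frzb were lost in 5 of the 6 fits and those of ppp1r1c and GRAMD2 in 4, with limma adjusted p-values up to 0.0683, 0.11, 0.0789, 0.0704 and 0.07.

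**Figure D2:**
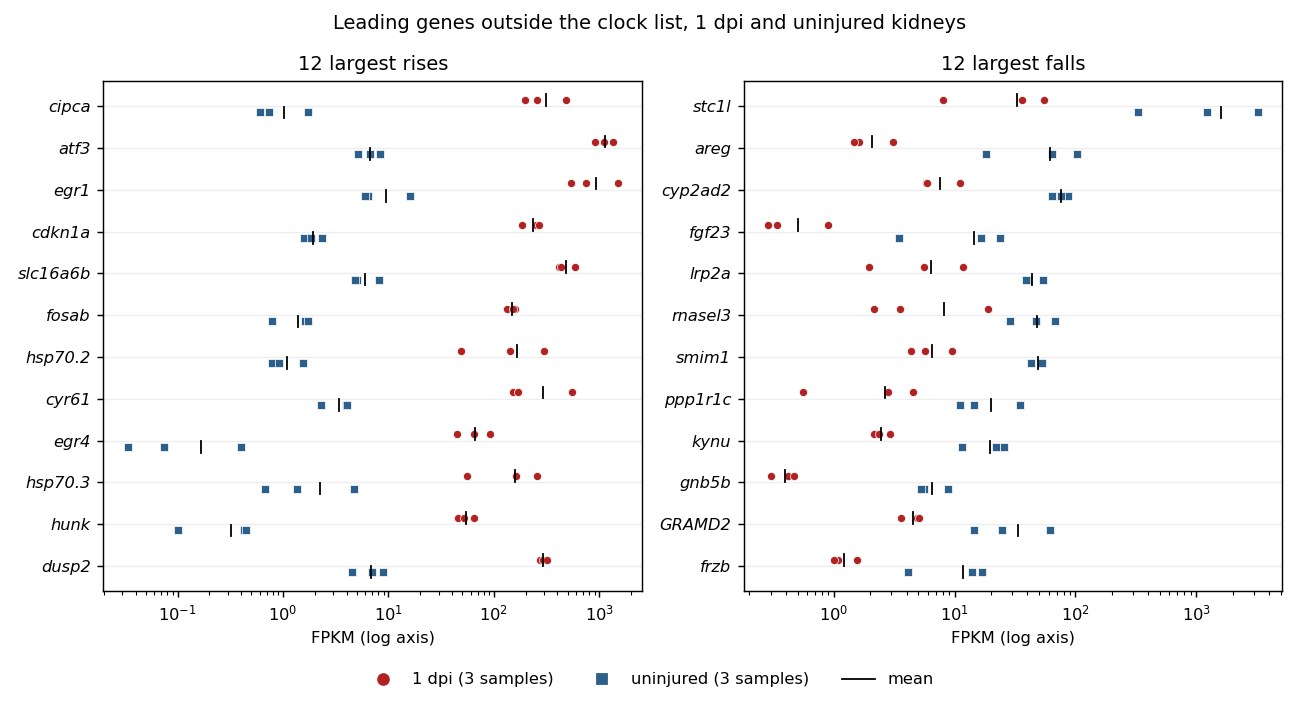
FPKM (x axis, log scale) of the 12 genes with the largest rise (left) and the 12 with the largest fall (right) outside the clock list, one point per sample, 1 dpi in red above uninjured in blue, with the group means as black ticks. In all 24 genes the points of the 2 groups do not overlap. Differences run from 5.28 to 7.21 for the rises and from -5.37 to -2.34 for the falls on the log2(FPKM + 1) scale.

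Immediate early genes are switched on by stress and growth signals without new protein synthesis and encode transcription factors of the AP-1, EGR and KLF families and the phosphatases that turn MAP kinases off again. Of the 61 genes of immediate early and stress transcription factors, 54 were higher at 1 dpi and 0 were lower, and the median difference was 2.33. The AP-1 gene fosab had 134, 158 and 150 FPKM at 1 dpi against 1.61, 0.779 and 1.74 FPKM in uninjured kidneys, a difference of 5.99 ± 0.24 (limma adjusted p = 0.000194). Its paralogue fosb had 33.1, 64.7 and 43.9 FPKM against 0.396, 0.286 and 0.469 FPKM. The groups lay far apart in both. A further member, fosaa, was far lower in FPKM, with 2.62, 5.51 and 13.8 FPKM at 1 dpi and 0.178, 0.218 and 0.0579 FPKM in uninjured kidneys, and its call was lost without uninjured replicate 1 or 3 (limma adjusted p = 0.0594 and 0.056). The partner gene jun, chosen after its values were seen, had 345, 397 and 556 FPKM at 1 dpi and 19.2, 19.3 and 14.2 FPKM in uninjured kidneys.

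Among the EGR zinc finger genes, egr1 had 753, 536 and 1484 FPKM at 1 dpi against 15.998, 6.40 and 6.00 FPKM in uninjured kidneys (6.46 ± 0.50, limma adjusted p = 0.000683). egr4 had 64.3, 91.3 and 44.3 FPKM at 1 dpi against 0.0738, 0.0339 and 0.396 FPKM. In uninjured kidneys egr4 rested on 2, 1 and 11 reads. The MAP kinase phosphatase gene dusp2 had 272, 292 and 319 FPKM against 6.99, 4.52 and 8.88 FPKM. The count for the list stayed between 47 and 50 genes in the 6 fits that left out a sample.

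This list shares members with the circadian clock list, of which 25 of 38 genes were higher and 1 lower. The time of day at which the kidneys were collected is not given in the sources used here, so for both lists collection time and injury cannot be told apart.

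The p53 protein responds to DNA damage by halting the cell cycle or starting apoptosis. Of 25 genes of p53 targets and DNA damage, 15 were higher and 0 lower at 1 dpi, with a median difference of 1.56. The 15 include a pair of table entries named baxa, between which reads may be split, and isg15, better known as an interferon target. The cell cycle inhibitor gene cdkn1a (p21) had 250, 183 and 265 FPKM at 1 dpi against 1.596, 1.85 and 2.37 FPKM in uninjured kidneys, a difference of 6.30 ± 0.23 (limma adjusted p = 0.000159). The pro-apoptotic gene bbc3 (PUMA) had 78.4, 87.9 and 65.1 FPKM against 1.72, 3.13 and 3.73 FPKM (4.37 ± 0.28, limma adjusted p = 0.000511). The groups lay far apart in both. The growth arrest genes gadd45ba and btg2 rose by 4.1003 ± 0.33 and 4.08 ± 0.60 (limma adjusted p = 0.000823 and 0.00698), and ccng2, a cyclin that slows division, by 1.3997 ± 0.22 (limma adjusted p = 0.00802). rrm2b, the p53-induced ribonucleotide reductase subunit that was chosen after its values were seen, had 53.7, 66.9 and 53.5 FPKM at 1 dpi against 8.73, 8.72 and 9.18 FPKM. Not all p53 targets passed the test. The gene mdm2, which encodes the ubiquitin ligase that degrades p53, had 19.1, 17.1 and 16.5 FPKM at 1 dpi and 15.4, 14.5 and 17.5 FPKM in uninjured kidneys (limma adjusted p = 0.58).

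Of 45 cell cycle genes, 0 were called by limma in either direction, 8 had an unadjusted p below 0.05, and limma voom on the recovered reads called 0. Their median difference was -0.85, and their level had the same order of samples as the ovary markers within each group. The summed FPKM of the list was 634, 1135 and 406 at 1 dpi and 1685, 694 and 1833 in uninjured kidneys, so the groups overlapped. Without uninjured replicate 2, 6 cell cycle genes were called lower, and with the ovary covariate 10 were lower and 1 higher. The part of ovary tissue in these values was not tested further.

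Heat shock proteins refold damaged proteins. Of 31 genes of heat shock proteins and chaperones, 16 were higher and 1 lower, with a median difference of 0.68, and the count of higher genes was 10 without uninjured replicate 1 or 3. The 4 inducible hsp70 genes led the list. hsp70.2 had 143, 300 and 48.4 FPKM at 1 dpi against 0.783, 1.55 and 0.917 FPKM in uninjured kidneys, a difference of 5.97 ± 0.63 (limma adjusted p = 0.002). hsp70.3, hsp70l and hsp70.1 rose by 5.56 ± 0.68, 4.98 ± 0.67 and 4.43 ± 0.59 (limma adjusted p = 0.00336, 0.00495 and 0.00473). In all 4 genes 1 dpi replicate 2 was the highest sample and replicate 3 the lowest, and the lowest 1 dpi value still lay above every uninjured value. These copies are close in sequence, and how reads shared among them were counted is not given in the sources used here, so the split between them is uncertain. The HSP90 gene hsp90aa1.2, chosen after its values were seen, had 153, 321 and 75.4 FPKM at 1 dpi and 14.6, 20.55 and 5.09 FPKM in uninjured kidneys, with the same order of the 1 dpi samples. The 1 lower gene was hsp90aa1.1, at 0.212 to 0.357 FPKM at 1 dpi and 0.614 to 0.804 FPKM in uninjured kidneys (limma adjusted p = 0.0395), whose call was lost in 5 of the 6 fits that left out a sample and with the ovary covariate (0.186). The fit on all 15 samples without that covariate lost the call of hsp90aa1.1 as well.

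Unfolded protein in the endoplasmic reticulum and other stresses converge on the translation factor eIF2 and the transcription factor ATF4. Of 8 listed genes of endoplasmic reticulum stress, 5 were higher and 0 lower, with a median difference of 1.03, and 3 were higher without 1 dpi replicate 2. ddit3 (CHOP), an ATF4 target, had 156, 186 and 297 FPKM at 1 dpi against 15.9, 14.8 and 16.4 FPKM in uninjured kidneys. ppp1r15a (GADD34), which restores translation, had 193, 238 and 135 FPKM against 15.6, 11.6 and 15.2 FPKM. The differences were 3.63 ± 0.27 and 3.62 ± 0.27 (limma adjusted p = 0.000628 and 0.000622), and atf4b itself rose by 2.46 ± 0.25 (limma adjusted p = 0.00172). The folding chaperones of the reticulum did not share this direction. calr had 12.5, 10.5 and 9.60 FPKM at 1 dpi against 49.3, 22.98 and 17.7 FPKM in uninjured kidneys (limma adjusted p = 0.0642, and 0.0122 with the ovary covariate), and pdia2 and pdia6 had differences of -0.79 and -0.61 (limma adjusted p = 0.16 and 0.131).

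Genes of protein and organelle clearance were among the rises. Of 29 genes of lysosome and autophagy 6 (20.7%, against 12.9% of all genes) were higher and 0 lower. The count of higher genes was 4 without 1 dpi replicate 2 or uninjured replicate 1. Of 23 proteasome and ubiquitin genes 5 (21.7%) were higher and 1 (4.35%, against 6.9%) lower. The count of 5 held in each of the 6 fits that left out a sample. The autophagy receptor gene sqstm1 (p62), which is on both lists, had 245, 236 and 320 FPKM at 1 dpi against 24.5, 30.1 and 42.5 FPKM in uninjured kidneys (3.03 ± 0.26, limma adjusted p = 0.00106). The autophagy genes ulk2, a starting kinase, and WIPI1, a membrane-binding factor, rose by 2.75 ± 0.26 and 2.71 ± 0.27 (limma adjusted p = 0.00147 and 0.00172), and the polyubiquitin gene ubb by 2.26 ± 0.26 (limma adjusted p = 0.00284). The medians of the 2 lists were 0.55 and 0.23.

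Haem oxygenase opens the haem ring and is induced by free haem and by oxidative stress. Its gene hmox1a had 2805, 2080 and 960 FPKM at 1 dpi against 38.4, 73.7 and 78.3 FPKM in uninjured kidneys, a difference of 4.85 ± 0.47 (limma adjusted p = 0.00159). Replicate 3 was the lowest 1 dpi sample, as it was for the erythroid sum, whose part in the result was not tested. slc25a38a, which carries glycine into mitochondria for haem synthesis, had 46.9, 52.7 and 22.01 FPKM against 0.577, 0.309 and 0.798 FPKM (4.65 ± 0.38, limma adjusted p = 0.000849). It was 1 of 31 erythroid markers called, while the globin gene hbaa1 had 6714, 9419 and 2175 FPKM at 1 dpi and 3447, 9434 and 4651 FPKM in uninjured kidneys (limma adjusted p = 0.963). Over the 113 antioxidant and conjugation enzymes, falls outnumbered rises, with 19 lower (16.8%, against 6.9% of all genes) and 11 higher (9.73%, against 12.9%) and a median of -0.31. The count of lower genes was 10 without 1 dpi replicate 1, 7 without 1 dpi replicate 2 and 9 without uninjured replicate 1, and that of higher genes 6 without uninjured replicate 1. The peroxisomal enzyme gene cat, chosen after its values were seen, had 97.0, 141 and 193 FPKM at 1 dpi and 342, 393 and 395 FPKM in uninjured kidneys, and its limma adjusted p was 0.0182. The call was lost without 1 dpi replicate 2 or uninjured replicate 1 or 3, with values up to 0.0609.

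**Figure D3:**
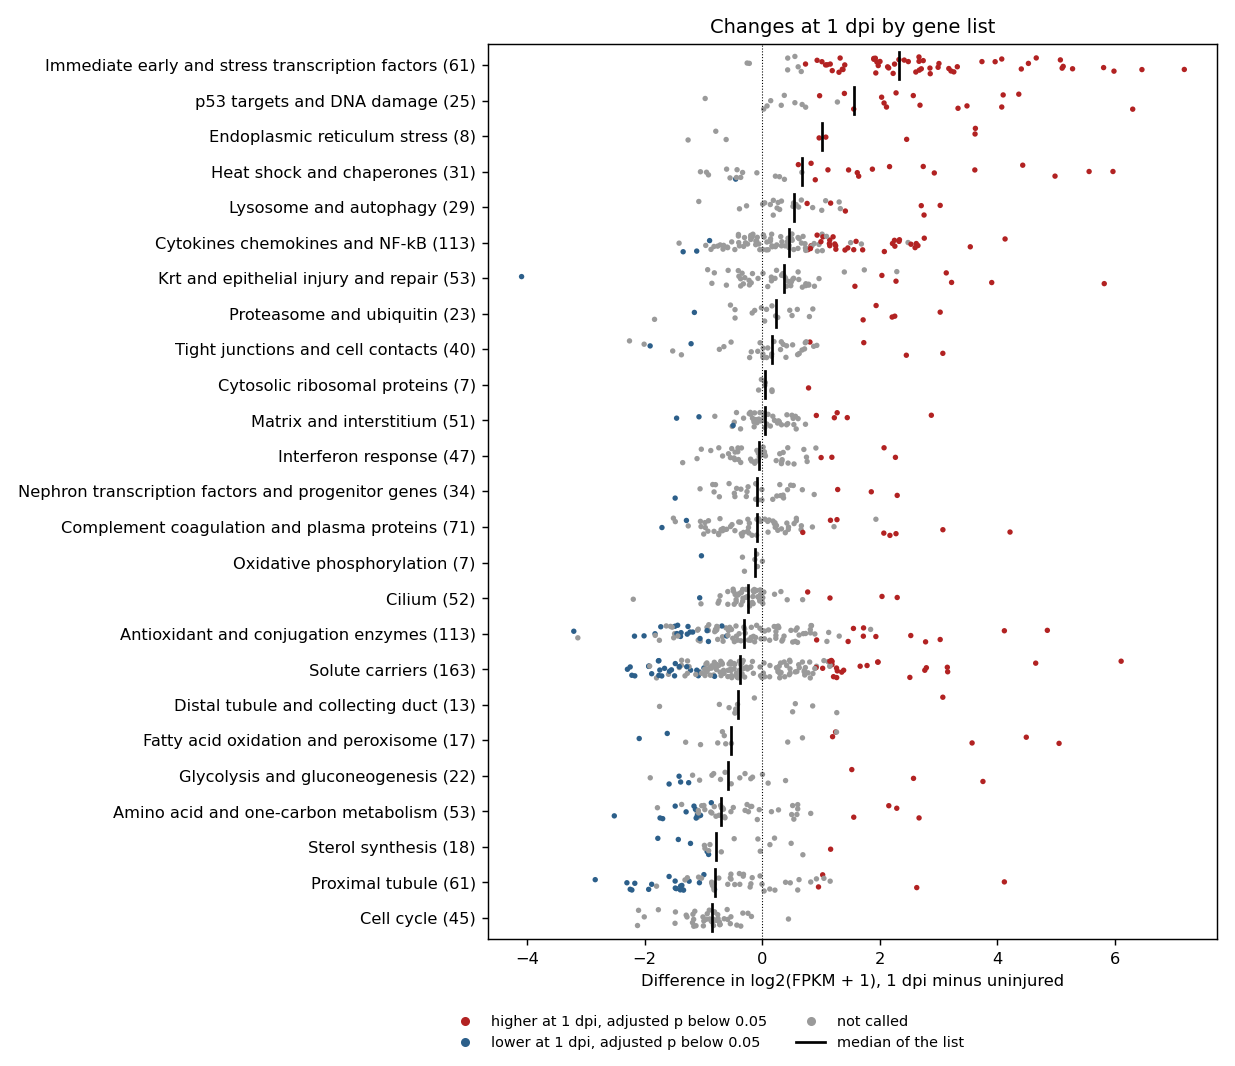
Difference in log2(FPKM + 1), 1 dpi minus uninjured (x axis), for every listed gene of 25 functional lists (rows, with the number of genes in brackets), red where called higher, blue where called lower and grey where not called, with the list median as a black bar. The immediate early list has the highest median, 2.33, and the cell cycle and proximal tubule lists the lowest, -0.85 and -0.81.

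The proximal tubule list had 61 genes, with a median difference of -0.81. At 1 dpi 19 (31.1%, against 6.9% of all genes) were lower and 4 (6.56%, against 12.9%) higher. The endocytic receptor genes lrp2a (megalin) and cubn (cubilin), whose proteins recover filtered protein, fell the furthest. lrp2a had 1.95, 5.55 and 11.6 FPKM at 1 dpi against 53.5, 40.2 and 38.8 FPKM in uninjured kidneys, a difference of -2.84 ± 0.52 (limma adjusted p = 0.0143). cubn had 8.74, 10.9 and 25.3 FPKM against 87.4, 59.18 and 67.2 FPKM (-2.2996 ± 0.40, limma adjusted p = 0.0122). In both, 1 dpi replicate 1 was the lowest sample and replicate 3 the highest, and no 1 dpi sample reached an uninjured one. Without uninjured replicate 1 the adjusted p was 0.0573 for lrp2a and 0.0509 for cubn. The count of lower genes was 10 without 1 dpi replicate 1, 10 without 1 dpi replicate 2 and 9 without uninjured replicate 1.

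Carriers on the same cells had a like pattern. The neutral amino acid carrier gene slc6a19b had 55.6, 33.7 and 43.6 FPKM at 1 dpi against 216, 225 and 177 FPKM in uninjured kidneys, and the dicarboxylate carrier gene slc13a3 had 16.1, 26.3 and 36.5 FPKM against 106, 172 and 99.4 FPKM. The lactate carrier gene slc5a12 had 62.0, 66.8 and 75.3 FPKM against 252, 309 and 229 FPKM. The differences were -2.22 ± 0.24, -2.24 ± 0.36 and -1.93 ± 0.20 (limma adjusted p = 0.00227, 0.00923 and 0.00194), and each held without any 1 sample. These 3 carriers were chosen after their values were seen. hnf4a, the transcription factor that keeps proximal tubule cells differentiated, had 7.02, 6.15 and 5.42 FPKM at 1 dpi and 20.49, 21.97 and 15.2 FPKM in uninjured kidneys (-1.48 ± 0.24, limma adjusted p = 0.00914).

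Other proximal tubule genes did not fall. The sodium-phosphate cotransporter gene slc34a1a had 211, 440 and 659 FPKM at 1 dpi and 297, 163 and 141 FPKM in uninjured kidneys, with overlap between the groups (1.05 ± 0.49, limma adjusted p = 0.164). The phosphate carrier gene slc20a1a had 93.7, 138 and 92.8 FPKM against 76.0, 53.1 and 42.4 FPKM, and the glucose carrier gene slc5a1 had 63.9, 73.9 and 97.5 FPKM against 29.6, 57.1 and 23.3 FPKM (limma adjusted p = 0.0671 and 0.0681). All 3 samples at 1 dpi lay above all uninjured samples in these last 2 genes, without passing the test. slc5a1 passed without uninjured replicate 2 (limma adjusted p = 0.0219) and slc20a1a with the ovary covariate (0.00922). The summed FPKM of the whole list was 3093, 3415 and 4815 at 1 dpi and 4893, 6771 and 4389 in uninjured kidneys, so that the sums overlapped while most of the called members were lower.

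Of the 4 proximal tubule genes that rose, cyp24a1, whose enzyme inactivates vitamin D, had the largest difference, 4.12 ± 0.41 (limma adjusted p = 0.00172). It had 16.045, 36.9 and 30.1 FPKM at 1 dpi against 0.365, 0.196 and 1.34 FPKM in uninjured kidneys. ggt1a, a brush border enzyme that splits glutathione, had 65.1, 93.9 and 153 FPKM against 25.2, 10.5 and 12.6 FPKM (2.63 ± 0.43, limma adjusted p = 0.00962). The others, slc22a4 and anpepb, had differences of 1.03 ± 0.27 and 0.96 ± 0.24 (limma adjusted p = 0.0404 and 0.0384). The count of higher genes was 2 without 1 dpi replicate 2 or 3 or uninjured replicate 1 or 3.

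**Figure D4:**
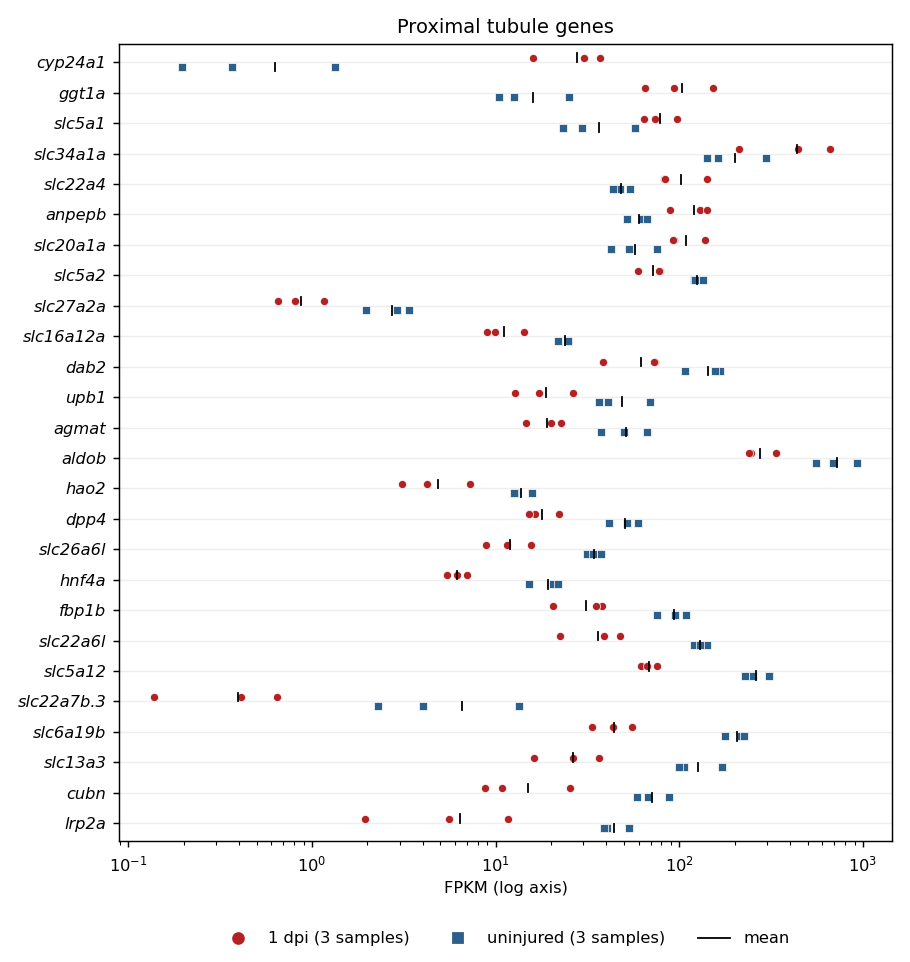
FPKM (x axis, log scale) of the 23 called proximal tubule genes and of slc34a1a, slc20a1a and slc5a1, which were not called, ordered by their difference, one point per sample, 1 dpi in red above uninjured in blue, with group means as black ticks. The 19 genes from slc5a2 down to lrp2a are lower at 1 dpi with no overlap, and slc34a1a overlaps between the groups.

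Hormone genes were among the leading falls. In zebrafish stc1l and fgf23 are made by the corpuscles of Stannius, and both encode hormones of mineral balance. fgf23 had 0.8999, 0.340 and 0.287 FPKM at 1 dpi against 23.6, 3.46 and 16.5 FPKM in uninjured kidneys (-3.07 ± 0.64, limma adjusted p = 0.0213). stc1l had 55.0, 7.99 and 36.2 FPKM against 1238, 328 and 3250 FPKM (-5.37 ± 0.99, limma adjusted p = 0.0145). In both, uninjured replicate 2 was the lowest of the uninjured samples. Both varied widely within groups. Over the 9 later samples stc1l ran from 0.155 to 1307 FPKM and fgf23 from 0 to 16.2 FPKM. At 3 dpi alone stc1l had 3.67, 434 and 0.155 FPKM. The steroid enzyme gene star of the interrenal gland had 0.185, 0.454 and 0.191 FPKM at 1 dpi and 8.16, 0.192 and 5.47 FPKM in uninjured kidneys, with the same sample lowest (limma adjusted p = 0.142). Within 1 dpi the order differed, since replicate 2 was the lowest sample for stc1l and the highest for star. The part of dissected gland tissue in these falls was not tested. The call of stc1l was lost in the fit on all 15 samples (limma adjusted p = 0.0831) and with the ovary covariate (0.0661), and that of fgf23 in the voom fit (0.0553).

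Solute carriers as a whole moved in both directions, with 23 of 163 higher (14.1%, against 12.9% of all genes) and 25 lower (15.3%, against 6.9%) and a median of -0.38. Beside slc16a6b and slc25a38a, the largest rises were those of slc25a25a, an ATP-magnesium/phosphate carrier of mitochondria, and slc3a2b, the shared heavy chain of several amino acid carriers. slc25a25a had 357, 305 and 487 FPKM at 1 dpi against 52.98, 23.7 and 55.5 FPKM in uninjured kidneys, and slc3a2b had 227, 182 and 146 FPKM against 17.8, 24.2 and 17.6 FPKM. The differences were 3.16 ± 0.38 and 3.15 ± 0.24 (limma adjusted p = 0.00319 and 0.000726). The count of lower carriers was 13 without 1 dpi replicate 1, 7 without 1 dpi replicate 2 and 9 without uninjured replicate 1, and that of higher carriers 14 without uninjured replicate 1.

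Genes of fuel use moved in both directions. Of 17 genes of fatty acid oxidation and the peroxisome, 5 (29.4%, against 12.9% of all genes) were higher and 2 (11.8%, against 6.9%) lower. Their median was -0.52. The higher genes were plin2, angptl4, pdk2b and the uncoupling protein genes ucp2 and ucp3. plin2, which coats lipid droplets, had 455, 427 and 960 FPKM at 1 dpi against 15.3, 17.6 and 16.0 FPKM in uninjured kidneys (5.05 ± 0.34, limma adjusted p = 0.000529). angptl4, an inhibitor of lipoprotein lipase, and pdk2b, a kinase that blocks the entry of pyruvate into the citric acid cycle, rose by 4.49 ± 0.40 and 3.57 ± 0.29 (limma adjusted p = 0.00115 and 0.000847). The oxidation enzyme gene acad11 had 2.92, 3.86 and 2.95 FPKM at 1 dpi and 11.05, 15.97 and 9.55 FPKM in uninjured kidneys (-1.61 ± 0.27, limma adjusted p = 0.011), and acsf2, an acyl-CoA synthetase gene, fell by 2.09 (SE 0.40, limma adjusted p = 0.0163, and up to 0.0594 without 1 dpi replicate 1 or 2 or uninjured replicate 1). The enzyme genes acaa1 and acox3 overlapped between the groups, at -0.75 and -1.30 (limma adjusted p = 0.118 and 0.193). acaa1 was called in 2 of 16 alternative fits, with limma adjusted p-values down to 0.0344.

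Of 22 genes of glycolysis and gluconeogenesis, 3 (13.6%, against 12.9% of all genes) were higher and 4 (18.2%, against 6.9%) lower, with a median of -0.58. g6pca.2, which releases glucose from the cell, had 492, 513 and 891 FPKM at 1 dpi against 76.3, 104 and 131 FPKM in uninjured kidneys (2.58 ± 0.33, limma adjusted p = 0.00395). pck1, the entry enzyme of gluconeogenesis, had 28.8, 35.9 and 33.6 FPKM against 6.97, 0.297 and 0.486 FPKM (3.76 ± 0.69, limma adjusted p = 0.0145, and 0.0517 without 1 dpi replicate 2). fbp1b, an enzyme between these steps, went the other way, with 20.51, 38.1 and 35.1 FPKM at 1 dpi and 76.1, 95.3 and 109 FPKM in uninjured kidneys (-1.58 ± 0.29, limma adjusted p = 0.0145). The paralogue of pck1, pck2, chosen after its values were seen, was lower too. It had 37.9, 24.2 and 46.4 FPKM at 1 dpi against 86.6, 110 and 89.1 FPKM in uninjured kidneys (-1.41 ± 0.28, limma adjusted p = 0.0182). Without 1 dpi replicate 1 or uninjured replicate 1 its limma adjusted p was up to 0.0551. The count of higher genes in this list was 1 without 1 dpi replicate 2, and that of lower genes 1 without 1 dpi replicate 1 and 2 without uninjured replicate 1 or 3.

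Sterol synthesis had 5 lower genes (27.8%, against 6.9% of all genes) and 1 higher gene (5.56%, against 12.9%) of 18, with a median of -0.79. The lower genes included sc5d, mvda, lss and dhcr7, which encode enzymes of the pathway, and the higher gene was npc1, which exports cholesterol from lysosomes. The list members hmgcrb and sqlea were not called, at 0.49 and -0.07 (limma adjusted p = 0.151 and 0.699). All 1 dpi samples of hmgcrb lay above all uninjured samples, and it was called in 1 of 16 alternative fits (limma adjusted p = 0.0418). The count of lower genes was 0 without 1 dpi replicate 2 or 3 or uninjured replicate 1, 2 without 1 dpi replicate 1 or uninjured replicate 3 and 3 without uninjured replicate 2. Amino acid and one-carbon metabolism had 11 lower (20.8%) and 4 higher genes (7.55%) of 53, with a median of -0.69. The higher genes were odc1, which starts polyamine synthesis, sat1a.2, a polyamine acetyltransferase gene, arg2, an arginase gene, and mat2aa, whose enzyme makes S-adenosylmethionine. The last 3 were higher by 2.67 ± 0.30, 2.29 ± 0.28 and 2.16 ± 0.28 (limma adjusted p = 0.00243, 0.0033 and 0.00412). The count of lower genes was 3 without 1 dpi replicate 1, 6 without 1 dpi replicate 3 and 2 without 1 dpi replicate 2 or uninjured replicate 1.

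NF-kB drives inflammatory genes and, with them, its own inhibitors. Of 113 genes of cytokines, chemokines and NF-kB, 31 were higher and 3 lower, with a median of 0.46, and the count of higher genes was 17 without 1 dpi replicate 1 and 16 without uninjured replicate 1. The inhibitor gene nfkbiab (IkB alpha) had 1276, 887 and 1020 FPKM at 1 dpi against 64.1, 41.1 and 77.3 FPKM in uninjured kidneys (4.13 ± 0.29, limma adjusted p = 0.000608), the largest rise of the list, and tnfaip3 (A20), another inhibitor, rose by 2.65 ± 0.28 (limma adjusted p = 0.0019). The NF-kB subunit gene nfkb2 had 168, 164 and 174 FPKM against 28.3, 18.6 and 26.4 FPKM, and the chemokine gene ccl34a.4 had 40.4, 40.4 and 39.3 FPKM against 1.904, 2.49 and 3.33 FPKM. The 1 dpi samples of both lay within a narrow range. The cytokine gene il1b, chosen after its values were seen, was at 5.30, 4.07 and 11.2 FPKM at 1 dpi and 1.63, 1.03 and 1.85 FPKM in uninjured kidneys (limma adjusted p = 0.0349, and up to 0.0937 without 1 dpi replicate 1 or any 1 uninjured sample).

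The interferon list had 4 higher (8.51%, against 12.9% of all genes) and 0 lower genes of 47 and a median of -0.05, near that of all genes. irf1b, an interferon regulatory factor gene, had 212, 162 and 264 FPKM at 1 dpi and 32.2, 62.2 and 38.4 FPKM in uninjured kidneys (2.27 ± 0.31, limma adjusted p = 0.00551). The antiviral gene mxa had 2.80, 3.94 and 5.08 FPKM against 2.67, 2.54 and 3.45 FPKM (limma adjusted p = 0.396). The counts of higher genes fell to 1 or 2 without any of 5 of the 6 samples, all but uninjured replicate 2.

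Of 11 neutrophil markers 3 (27.3%) were higher, namely pnp5a, illr4 and cebpb, a transcription factor gene that other cells use too, with a list median of 0.97, and the summed neutrophil level did not overlap between the groups. The granule enzyme gene mpx had 280, 269 and 297 FPKM at 1 dpi and 259, 326 and 279 FPKM in uninjured kidneys (limma adjusted p = 0.93). The matrix protease gene mmp9 had 105, 54.4 and 139 FPKM against 7.24, 56.1 and 13.9 FPKM, and only uninjured replicate 2 overlapped with the 1 dpi samples (limma adjusted p = 0.0709, 0.012 without that sample and 0.026 with the ovary covariate). Of 30 macrophage markers 2 (6.67%) were higher, and mpeg1.1 had 41.9, 51.4 and 52.5 FPKM at 1 dpi against 46.0, 57.0 and 60.12 FPKM in uninjured kidneys (limma adjusted p = 0.574). The called macrophage genes were the chemokine ccl34a.4 and the cytokine il1b.

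Of 71 genes of complement, coagulation and plasma proteins, 8 (11.3%) were higher and 2 (2.82%) lower, against 12.9% and 6.9% of all genes. Their median was -0.09, and 5 were higher without uninjured replicate 3. The rises were in the start of clotting and in clot removal. f3b, tissue factor, had 63.9, 84.8 and 120 FPKM at 1 dpi against 7.24, 1.37 and 4.37 FPKM in uninjured kidneys (4.22 ± 0.49, limma adjusted p = 0.00284). plat, tissue plasminogen activator, had 26.3, 39.5 and 50.3 FPKM against 3.43, 3.68 and 3.56 FPKM (3.08 ± 0.28, limma adjusted p = 0.00122). The protease-activated receptor gene f2rl1.2 rose by 2.17 ± 0.24 (limma adjusted p = 0.00246).

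Among 53 genes of epithelial injury and repair, 7 (13.2%) were higher and 1 (1.89%) lower, with a median of 0.37. The share of higher genes was near the 12.9% of all genes, so the genes below are described singly. The 2 EGF receptor ligands on the list moved in opposite directions. hbegfa had 256, 268 and 552 FPKM at 1 dpi against 44.6, 25.4 and 38.1 FPKM in uninjured kidneys (3.22 ± 0.37, limma adjusted p = 0.00281), and areg (amphiregulin) had 1.61, 1.48 and 3.08 FPKM against 64.3, 18.1 and 103.5 FPKM (-4.09 ± 0.63, limma adjusted p = 0.00797). Uninjured replicate 2 was again the lowest uninjured sample for areg, and its limma adjusted p was 0.0521 with the ovary covariate. Over the 9 later samples areg ran from 0.183 to 85.2 FPKM. Like stc1l and fgf23, it was highest in replicate 2 at 3 dpi and at 7 dpi and in replicate 3 at 5 dpi. Within 1 dpi the highest sample was replicate 3 for areg and replicate 1 for stc1l and fgf23. The part of dissected gland tissue in the fall of areg was not tested. cyr61, a matrix-associated signalling protein and target of the YAP coactivator, had 153, 171 and 554 FPKM at 1 dpi and 3.93, 2.27 and 4.03 FPKM in uninjured kidneys (5.82 ± 0.52, limma adjusted p = 0.00115). sox9a, a transcription factor of regenerating tubules in mammals, had 36.5, 32.3 and 122 FPKM against 2.89, 1.69 and 3.37 FPKM (3.91 ± 0.53, limma adjusted p = 0.00511). In cyr61, sox9a and hbegfa alike, 1 dpi replicate 3 stood above the other 1 dpi samples. havcr1, the homologue of a mammalian marker of tubule injury (KIM-1), had 31.2, 44.7 and 49.2 FPKM at 1 dpi against 32.6, 29.6 and 42.1 FPKM in uninjured kidneys (limma adjusted p = 0.482).

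Of 40 genes of tight junctions and cell contacts 4 (10.0%) were higher and 2 (5.0%) lower, against 12.9% and 6.9% of all genes, with a median of 0.16. For this list 2 or fewer were higher without 1 dpi replicate 1 or 2 or uninjured replicate 1 or 3. The claudin gene cldnb, the 1 called gene of 13 of the distal tubule and collecting duct, had 208, 182 and 154 FPKM at 1 dpi against 24.3, 20.2 and 17.5 FPKM in uninjured kidneys (3.07 ± 0.22, limma adjusted p = 0.000575). The distal transcription factor gene irx3b had 37.6, 15.3 and 43.4 FPKM against 46.5, 63.1 and 40.5 FPKM (limma adjusted p = 0.242). cdh16, the kidney-specific cadherin, had 0.466, 0.402 and 0.588 FPKM at 1 dpi and 5.62, 2.66 and 6.07 FPKM in uninjured kidneys (-1.904 ± 0.31, limma adjusted p = 0.00923, and 0.0661 with the ovary covariate). The call of cdh16 was also lost in the fit on all 15 samples without that covariate. Of 34 nephron transcription factors and progenitor genes 3 (8.82%) were higher and 1 (2.94%), hnf4a, lower, both below the shares of all genes. her6, a Notch target of the Hes family, had 42.6, 35.1 and 37.7 FPKM against 12.7, 10.5 and 7.09 FPKM (1.86 ± 0.26, limma adjusted p = 0.00535), and foxj1a, the regulator of motile cilia, rose by 2.298 ± 0.43 (limma adjusted p = 0.0158, and 0.0517 without uninjured replicate 3). The progenitor marker lhx1a had 0.542, 0.660 and 0.562 FPKM at 1 dpi and 1.35, 1.67 and 1.06 FPKM in uninjured kidneys (limma adjusted p = 0.0556), and the prostaglandin synthase gene ptgs2a had 0.590, 0.686 and 1.06 FPKM against 0.364, 0.223 and 0.148 FPKM (limma adjusted p = 0.0538). Neither gene overlapped between the groups.

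Of 52 cilium genes 4 (7.69%) were higher and 1 (1.92%) lower, with 2 higher without 1 dpi replicate 1 or 3 or uninjured replicate 1 or 2 and 1 without uninjured replicate 3, and of 51 matrix and interstitial genes 5 (9.80%) were higher and 3 (5.88%) lower, against 12.9% and 6.9% of all genes, with medians of -0.23 and 0.04. The collagen gene col1a1a had 5.27, 7.58 and 5.71 FPKM at 1 dpi and 19.97, 4.29 and 3.33 FPKM in uninjured kidneys (limma adjusted p = 0.875). fabp10a, which the study uses as a marker of renal interstitial cells, had 39.6, 37.2 and 44.4 FPKM against 134, 26.4 and 39.8 FPKM (limma adjusted p = 0.641). It is also a liver marker. The 32 liver markers summed to 346, 504 and 415 FPKM at 1 dpi and to 1294, 561 and 317 FPKM in uninjured kidneys. Uninjured replicate 1 was thus the highest sample for both, and the part of liver tissue was not tested. The higher matrix genes were 1 or 2 in number without any 1 sample other than uninjured replicate 2. Of 7 listed oxidative phosphorylation genes 1 was lower, and of 7 cytosolic ribosomal protein genes 1 was higher, too few to describe these pathways.

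Set against the later injured kidneys, 1622 genes (28.5%) were higher at 1 dpi than the mean of 3, 5 and 7 dpi and 1102 (19.4%) were lower (limma, 12 samples). This comparison shares the 1 dpi samples with the first one and uses no uninjured sample. Of the 735 genes that were higher than in uninjured kidneys, 647 (88.0%) were also higher than at the later times, and of the 392 lower genes 147 (37.5%) were also lower. Only 6 genes were lower than in uninjured kidneys and higher than at the later times, and 2 were the reverse. Under quantile normalization the later comparison gave 1178 higher and 1332 lower genes, so that lower genes outnumbered higher ones under that scaling.

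The leading stress genes were thus higher at 1 dpi than in uninjured kidneys and than the mean of the later times. atf3 ranged from 10.9 to 108 FPKM over the 9 later samples, cdkn1a from 4.56 to 20.6 FPKM, hmox1a from 66.9 to 184 FPKM and plin2 from 14.3 to 53.4 FPKM, all below the lowest 1 dpi sample. Among the other leading rises, the clock-related cipca ranged from 0.446 to 2.43 FPKM and hunk from 0.222 to 0.785 FPKM at the later times, which covers their uninjured means. The proximal tubule receptors did not pass the test in this contrast, with lrp2a at 1.34 to 14.5 FPKM and cubn at 12.1 to 35.7 FPKM later (differences of -0.23 ± 0.46 and -0.30 ± 0.31, limma adjusted p = 0.732 and 0.467). For slc34a1a the later range of 11.5 to 73.2 FPKM lay below every 1 dpi sample, a difference of 3.76 ± 0.56 (limma adjusted p = 0.000369). It was 1 of 22 proximal tubule genes of 61 that were higher at 1 dpi than later, while 0 were lower and the list median was 0.52.

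**Figure D5:**
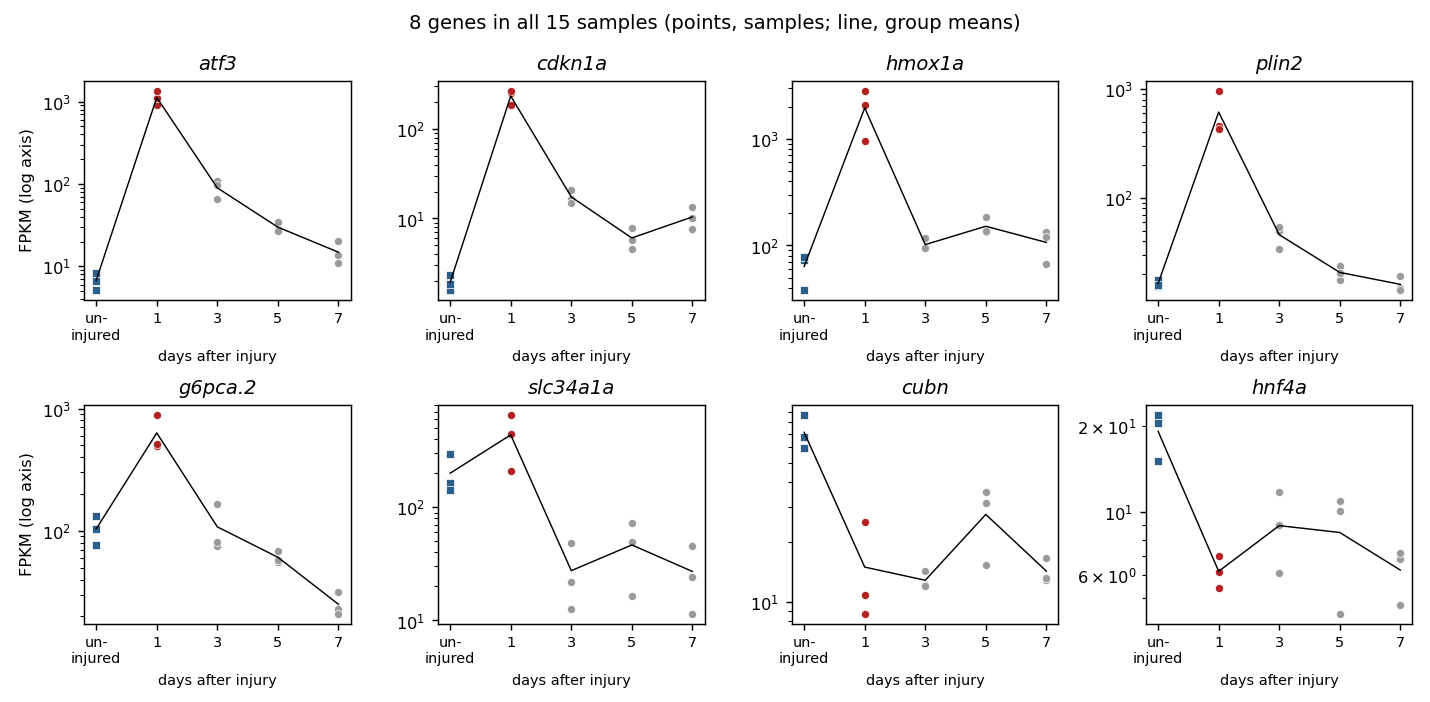
FPKM (y axis, log scale) of 8 genes in all 15 samples, with uninjured kidneys (blue squares), 1 dpi (red) and 3, 5 and 7 dpi (grey) along the x axis, points for samples and a line through the group means. atf3, cdkn1a, hmox1a, plin2 and g6pca.2 have their highest mean at 1 dpi, cubn and hnf4a are already low at 1 dpi, and slc34a1a is 211 to 659 FPKM at 1 dpi and 11.5 to 73.2 FPKM later.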

How the data were processed

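RNA sequencing was done on 15 whole-kidney samples, and the authors deposited 1 table of FPKM values. Per the submitters' processing notes the build was GRCz11 and the tools named include StringTie 1.3.3b and featureCounts 1.5.0-p3. The aligner and the annotation release are not given in the sources used here. Every FPKM value corresponded to a whole number of reads, and these reads and the library totals were recovered from them for 100% of the genes, within 0.001 reads.

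Values were analysed as log2(FPKM + 1), which understates changes of low genes, for genes above 0 in at least 3 samples. limma 3.58.1 in R 4.3.3 (lmFit, eBayes with trend) was fitted to the 6 samples, two-sided, with Benjamini-Hochberg adjustment over 5685 genes, and calls were made at 0.05. The second contrast, 1 dpi against the mean of 3, 5 and 7 dpi, used 12 samples. The script was tested on simulated data. Alternatives were another pseudocount (0.1), no filter or a mean of at least 1 FPKM, 2 other scalings, no trend and all 15 samples. Others were an ovary covariate, a replicate block, limma voom on the recovered reads and leaving out each of the 6 samples. Gene list counts under the alternatives were chosen after seeing the data.

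The members and lists were chosen with earlier results of these data known. Genes named were the 12 largest called rises and falls outside the clock list, up to 4 called members per list, the first 3 measured members of each list given by symbols, and 2 genes of the study. A further 40 genes, and members named only to complete a count, were chosen after their values were seen. Some genes are not reported here.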

Additional observations from a re-analysis of the deposited data

Results flagged for a closer look

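The difference between 1 dpi and the mean of 3, 5 and 7 dpi passed the test (limma, 12 samples) for the genes given here. For the leading rises this difference was 7.16 for cipca, 5.00 for atf3, 5.34 for egr1, 4.36 for cdkn1a, 5.70 for slc16a6b, 5.24 for fosab, 4.197 for hsp70.2, 4.11 for cyr61, 4.32 for egr4, 4.12 for hsp70.3, 5.31 for hunk and 4.39 for dusp2, all in log2(FPKM + 1) and higher at 1 dpi. Of the leading falls, kynu was lower at 1 dpi than later by -0.73 and frzb by -1.27 (limma adjusted p = 0.027 and 0.029). Like stc1l, fgf23 and areg, frzb was highest in replicate 2 at 3 and 7 dpi and in replicate 3 at 5 dpi. Uninjured replicate 2 was its lowest uninjured sample, and the part of dissected gland tissue was not tested. The progenitor marker lhx1a was lower by -0.97 (limma adjusted p = 0.00469), but the later times did not move alike. It had 0.542, 0.660 and 0.562 FPKM at 1 dpi and less at 3 dpi, with 0.350, 0.470 and 0.329 FPKM. At 5 and 7 dpi lhx1a ran from 2.19 to 6.17 FPKM. The phosphate carrier gene slc34a1a was higher at 1 dpi than later by 3.76, although it overlapped with uninjured kidneys. No cause of these differences was tested.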

How the results depend on the processing

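Of the 1127 calls, 0 changed sign in the 10 alternatives or in the 6 fits that left out a sample, and 834 to 1125 were called again in the alternatives other than the replicate block. Under that block 313 were called again. The fit on all 15 samples called 1987 genes (1169 higher, 818 lower), the ovary covariate 2028 (1177 higher, 851 lower) and the replicate block 314 (279 higher, 35 lower). Whether the replicate numbers pair the samples is not given in the sources used here. Deviations of same-numbered samples correlated at -0.21, -0.78 and -0.38. These values cannot decide it, since ovary RNA varied strongly within each group and in another order of replicates. Leaving out 1 sample gave 539 to 1284 calls, with 420 to 585 higher and 95 to 699 lower. In the comparison with the later times only the 1 dpi samples were left out, 1 at a time. This gave 2209 to 2310 calls, against 2724 with all samples. The other settings gave 949 to 1215 calls. The median over all genes ran from -0.14 to -0.02. The egg coat gene zp3a.2, not called at -2.25, was at 1.02 (limma adjusted p = 0.0315) with the ovary covariate. It is itself 1 of the 33 markers whose mean is that covariate, so it was adjusted in part for its own level. No conclusion is drawn from that value. Low genes such as fosaa and lhx1a rest on few reads in some samples.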

Other observations

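Some gene groups that the lists above do not hold were assembled after their values were seen, so their counts describe these samples only. Of 9 genes of the ESCRT machinery, which buds and repairs membranes, 8 were higher at 1 dpi and 0 lower, with a median difference of 1.55. ist1 had 100, 145 and 136 FPKM at 1 dpi against 27.2, 22.4 and 23.8 FPKM in uninjured kidneys, and vps37a had 79.2, 104 and 104 FPKM against 24.9, 20.6 and 24.1 FPKM. The groups lay apart in both genes, with differences of 2.32 ± 0.22 and 1.99 ± 0.20 (limma adjusted p = 0.00138 and 0.00178). Of 19 genes of apoptosis and caspases 8 were higher and 0 lower, among them both entries named baxa, between which reads may be split, and mcl1b and cflarb, whose products hold apoptosis back. The initiator caspase gene casp9 had 92.3, 54.8 and 89.3 FPKM at 1 dpi and 7.55, 5.39 and 8.69 FPKM in uninjured kidneys (3.27 ± 0.29, limma adjusted p = 0.00115).

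Of 17 genes of BMP signalling and its ID targets 8 were higher and 0 lower, with a median of 0.95. The 8 include nog2 and smad7, whose products hold BMP signalling back, at 1.89 ± 0.25 and 1.32 ± 0.23 (limma adjusted p = 0.00437 and 0.0127). id3, an inhibitor of differentiation, had 321, 215 and 227 FPKM at 1 dpi against 67.6, 48.9 and 57.8 FPKM in uninjured kidneys (2.0999 ± 0.24, limma adjusted p = 0.00265), and the signal transducer smad1 had 26.5, 19.1 and 35.2 FPKM against 4.08, 3.18 and 3.12 FPKM. The insulin-like growth factor binding protein genes igfbp1a and igfbp1b rose by 3.63 ± 0.33 and 4.48 ± 0.44 (limma adjusted p = 0.00122 and 0.00159), while the other 3 listed members of that family were not called.

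Among 29 paralogue pairs with both copies called, 25 moved in the same direction and 4 in opposite directions. Of all called genes 65.2% were higher. The 25 include clock genes, such as per1a and per1b at 5.00 and 3.69, for which collection time and injury cannot be told apart. slc3a2b had 227, 182 and 146 FPKM at 1 dpi against 17.8, 24.2 and 17.6 FPKM in uninjured kidneys, whereas slc3a2a had 61.7, 49.5 and 48.6 FPKM against 121, 120 and 100 FPKM (-1.08 ± 0.20, limma adjusted p = 0.0135, and 0.0549 and 0.0535 without 1 dpi replicate 2 and without uninjured replicate 1). The other pairs with opposite directions were slc16a9b at 1.15 and slc16a9a at -1.41, slc25a36b at 1.19 and slc25a36a at -1.22, and dhrs11a at 0.75 and dhrs11b at -1.92. Of these, slc16a9a and slc16a9b each lost the call in 5 of the 6 fits that left out a sample (all but that without 1 dpi replicate 3, limma adjusted p up to 0.127 and 0.0987), dhrs11a in 4 (without 1 dpi replicate 1 or 3 or uninjured replicate 1 or 3, up to 0.0662) and slc25a36a in 2 (without 1 dpi replicate 2 or uninjured replicate 1, up to 0.0594).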
